A study of Homo sapiens with 8 samples.

Results

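Promoters of 35 mitosis genes were examined for summits of Sp1 and CTCF ChIP-seq peaks in the human osteosarcoma line U-2 OS. The genes were taken from a list of regulators and parts of the mitotic apparatus, and all 35 were found among the 20046 protein-coding genes of GENCODE release 44 on hg38. A gene was called when a peak summit lay within 1 kb of any of its annotated transcript starts.

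The libraries came from chromatin crosslinked with 1% formaldehyde for 6 min. A U-2 OS line whose own SP1 gene carries a V5-Halo knock-in, which the labels also title parental, was used for the Sp1 pulldowns, with 2 different rabbit anti-Sp1 antibodies and 1 library each, and for a pulldown with normal rabbit IgG. The clone C32, with a FLAG-Halo knock-in at CTCF, gave 2 replicate CTCF libraries; the series text instead names wild type cells for CTCF, and the sample labels were followed here. Sp1 and CTCF were thus profiled in different lines, so line and target cannot be told apart. The study's methods describe both lines as knock-in clones. The labels do not say whether the 2 CTCF replicates came from separate cultures.

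Cells enter mitosis when cyclin B activates CDK1, attach their chromosomes to the spindle through kinetochores, and divide once the spindle checkpoint lets the anaphase-promoting complex destroy securin and cyclin B. Many genes of this programme are transcribed late in the cell cycle from promoters with CCAAT boxes, bound by NF-Y, and a cell cycle genes homology region (CHR), bound by the DREAM and MuvB complexes. Sp1 is a zinc finger factor of GC-rich promoters that recognises the GC box, and CTCF is a zinc finger protein with a long recognition sequence and a known role in chromosome loops.

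Promoter sequences of 5 members show these elements, beside Sp1 summits in CDC20, NUF2 and BUB1B, CTCF summits in ECT2 and no summit in CCNB2. These sequences were taken from the RefSeq promoter table on GRCh38.p14, were all from the + strand, and were shortened at annotated untranslated regions. Capitals mark the GC box GGGCGG, the CHR element TTTGAA or TTCGAA, the CCAAT box CCAAT and the ETS core CCGGAA, each on either strand. CDC20 (chr1:43358731-43358995) is shown for the highest fold with Sp1 antibody 1 among members with a summit in their window, NUF2 (chr1:163321777-163321904) for that with antibody 2, and ECT2 (chr3:172750476-172750696) for that in both CTCF replicates. BUB1B (chr15:40160819-40161081) and CCNB2 (chr15:59104896-59105160) were added after the values were seen. BUB1B had summits of both Sp1 antibodies and no GC box in its window, and CCNB2 had a GC box and no Sp1 summit. Only the exact words above were searched, so variants of them were neither marked nor counted.
CDC20: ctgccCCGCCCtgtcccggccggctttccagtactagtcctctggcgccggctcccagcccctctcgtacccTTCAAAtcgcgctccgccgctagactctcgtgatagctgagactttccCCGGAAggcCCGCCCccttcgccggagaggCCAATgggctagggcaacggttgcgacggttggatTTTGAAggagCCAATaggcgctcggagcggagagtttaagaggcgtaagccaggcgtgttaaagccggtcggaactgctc
NUF2: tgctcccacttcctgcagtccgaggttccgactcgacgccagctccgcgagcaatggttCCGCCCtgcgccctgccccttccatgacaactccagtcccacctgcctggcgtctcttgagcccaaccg
ECT2: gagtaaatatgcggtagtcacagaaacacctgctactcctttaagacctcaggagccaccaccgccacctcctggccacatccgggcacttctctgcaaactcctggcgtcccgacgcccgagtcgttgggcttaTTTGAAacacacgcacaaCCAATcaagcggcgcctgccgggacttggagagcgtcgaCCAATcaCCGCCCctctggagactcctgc
BUB1B: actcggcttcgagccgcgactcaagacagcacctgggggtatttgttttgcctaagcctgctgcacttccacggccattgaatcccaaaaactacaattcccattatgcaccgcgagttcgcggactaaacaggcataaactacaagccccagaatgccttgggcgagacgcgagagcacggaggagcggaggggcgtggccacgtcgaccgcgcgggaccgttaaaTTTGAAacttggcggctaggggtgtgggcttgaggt
CCNB2: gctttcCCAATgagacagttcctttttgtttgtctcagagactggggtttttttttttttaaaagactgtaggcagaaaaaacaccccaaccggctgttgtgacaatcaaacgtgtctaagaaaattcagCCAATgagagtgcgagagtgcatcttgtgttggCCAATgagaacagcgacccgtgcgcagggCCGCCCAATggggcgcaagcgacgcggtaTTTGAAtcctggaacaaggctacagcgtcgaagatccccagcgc
In the CCNB2 promoter the GC box shares letters with a CCAAT box. In the ECT2 promoter the CTCF summits lay 168 bp (replicate 1) and 166 bp (replicate 2) before the transcript start used for the window.

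Sp1 summits stood at most mitosis gene promoters. Antibody 1 called 27 of the 35 members (77.1%), against 37.3% of all protein-coding genes. Antibody 2 called 19 members (54.3%), against 24.1% of all genes. All 19 were also called by antibody 1, and 21.1% of all genes were called by both. Given a summit of antibody 1, antibody 2 called 70.4% of members and 56.6% of all such genes. The IgG list called 0 members and 0.0249% of all genes, which is 5 genes.

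CTCF summits were not more frequent at these promoters than at protein-coding genes in general. CTCF replicate 1 called 9 members (25.7%), against 32.4% of all genes. Replicate 2 called 7 members (20.0%), against 24.8% of all genes, and both replicates called 6 members (17.1%), against 24.2%. All 4 lists called 3 members, CDC20, CDC25B and BUB1B (8.57%), against 6.68% of all genes. No Sp1 or CTCF list called 3 members, CCNA2, AURKB and FOXM1, against 44.1% of all genes. With 1 library per Sp1 antibody and 2 for CTCF, no test was made, and these shares stand as descriptions. The lists held 8706 (antibody 1), 5973 (antibody 2), 42765 and 36082 (CTCF) and 106 (IgG) peaks. They give no read numbers, and those of the study were not used here.

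The members carried more annotated starts than other genes, which gives a summit more chances to be near one. They had a median of 7 distinct starts, against 5 for all genes, and genes called by antibody 1 had a median of 8, against 4 for uncalled genes. With canonical starts alone, antibody 1 still called 27 members (77.1%), against 34.0% of all genes, and antibody 2 called 19 (54.3%), against 21.7%.

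**Figure D1:**
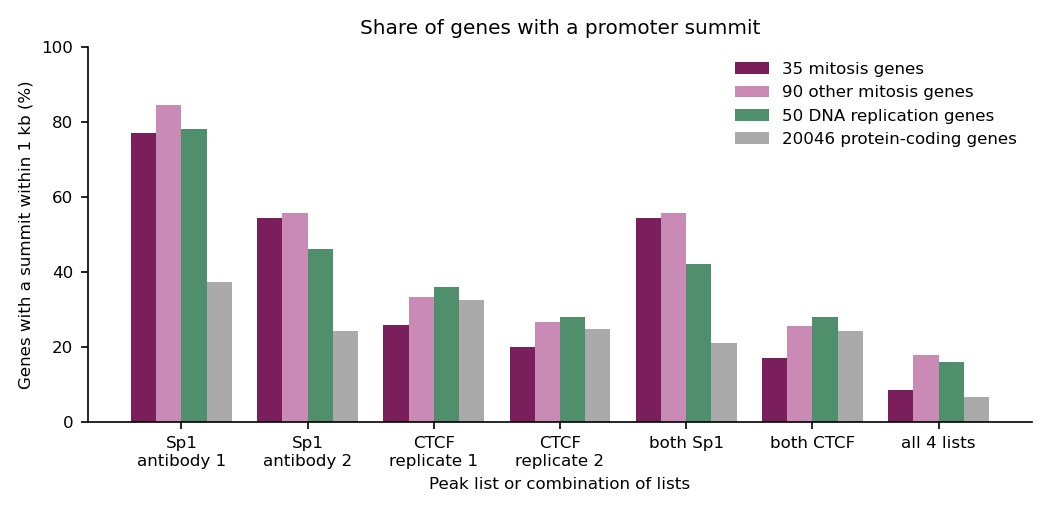
Bars give the percentage of genes called, by a summit no further than 1 kb from a transcript start (vertical axis), for each peak list or combination of lists (horizontal axis), in the 35 mitosis genes, 90 other mitosis genes, 50 DNA replication genes and all 20046 protein-coding genes. For Sp1 antibody 1 the mitosis genes stand at 77.1% and all genes at 37.3%, while for CTCF replicate 1 they stand at 25.7% and 32.4%.

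The Sp1 shares were close to those of other cell cycle genes. A list of 90 further mitosis genes held kinetochore, condensin, checkpoint, spindle, anaphase-promoting complex and DREAM complex genes, among others. Of these 90, antibody 1 called 84.4%, antibody 2 called 55.6% and CTCF replicates 1 and 2 called 33.3% and 26.7%. Of 50 DNA replication genes, which act in S phase, antibody 1 called 78.0%, antibody 2 called 46.0% and the CTCF replicates called 36.0% and 28.0%. All 4 lists called 17.8% of the further mitosis genes and 16.0% of the replication genes. High Sp1 shares were thus seen in all 3 cell cycle lists compared.

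Folds are given below as the enrichment over control at the summit of the strongest promoter peak, and each is a single value from 1 library. A fold depends on its library and control, so folds of different lists are not on one scale. Among the members that enter or trigger mitosis, the cyclin-dependent kinase CDK1 had only an antibody 1 peak, at 4.50. Its partner cyclin B1, CCNB1, also had only an antibody 1 peak, at 9.02. The phosphatase CDC25C, which activates CDK1, had 14.5 with antibody 1 and 6.73 with antibody 2. These 2 values lay 13 and 49 bp from an alternative start of the neighbouring gene FAM53C, and weaker CDC25C peaks of 8.42 and 4.75 stood 85 and 90 bp before the canonical start. CDC25B, a phosphatase of the same family, had 11.5 with antibody 1 and 3.96 with antibody 2. Its CTCF folds were 52.7 and 22.5. CCNB2, cyclin B2, was called by CTCF replicate 1 alone, at 6.78, and CCNA2, cyclin A2, by no list.

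Genes of anaphase onset held the strongest antibody 1 peak of all members. CDC20, the activator of the anaphase-promoting complex, had 47.0 with antibody 1, which was higher than in 98.3% of the other genes called by that antibody. With antibody 2 it had 6.24, which was higher than in 39.2% of the others. The 2 summits lay 155 and 121 bp before the CDC20 start, between the distal CHR element and the CCAAT boxes of the sequence above, and the second lay at the GC box centred 118 bp before the start. CDC20 also had CTCF folds of 28.0 and 7.68, at the same position 759 bp before the start. PTTG1, which encodes securin, had 13.1 with antibody 1 and 6.81 with antibody 2. UBE2C, an E2 enzyme of the anaphase-promoting complex, had an antibody 1 peak at 6.92, and ESPL1, the protease separase that securin holds in check, had CTCF peaks only.

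Spindle genes were mixed. AURKA, a centrosome and spindle kinase, was one of the members with a higher fold for antibody 2, at 10.0 against 6.49 for antibody 1. KIF2C, a microtubule-depolymerising kinesin, had 7.91 with antibody 1 and 4.04 with antibody 2. TPX2, an activator of AURKA, had 4.17 with antibody 1, the lowest of the members, and 4.94 in CTCF replicate 1. PLK1, a kinase of mitotic entry and the spindle, was called by CTCF replicate 1 alone, at 9.55. KIF11, the kinesin that separates the spindle poles, had CTCF peaks only.

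All 5 checkpoint genes were called by antibody 1 (37.3% of all genes) and all but MAD2L1 by antibody 2 (24.1% of all genes). The role groups are too small for their shares to be compared. The kinase BUB1 had 15.5 and 6.35. BUB1B, which encodes the checkpoint protein BUBR1, had 14.4 and 8.24. The kinase TTK had 10.5 and 4.80. BUB3, the partner of BUB1 and BUBR1, had 5.03 and 6.19, at summits 275 bp apart and with the higher value for antibody 2. MAD2L1, the checkpoint inhibitor MAD2, had 6.43 with antibody 1 and 4.29 in CTCF replicate 2.

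All 5 kinetochore genes were called by antibody 1, 4 of them by antibody 2, and none by CTCF. The shares of all genes were 37.3% and 24.1% for the antibodies and 32.4% and 24.8% for the CTCF replicates. With 5 genes, a lack of CTCF calls says little. CENPA, CENPF and NUF2 had CTCF peaks further than 1 kb from their starts. CENPA, the histone H3 variant of centromeres, had 14.9 and 5.40. CENPE, a kinetochore kinesin, had 9.85 and 3.56, the latter the lowest antibody 2 fold of the members. NDC80, the core of the microtubule-binding complex, had 8.92 and 6.39. Its partner NUF2 had 11.4 with antibody 1 and 88.5 with antibody 2, the highest antibody 2 fold of the members and higher than in 97.5% of the other genes called by that antibody. CENPF, a large kinetochore protein, had an antibody 1 peak at 5.58.

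In the chromosomal passenger complex, BIRC5, which encodes survivin, had 9.72 and 5.64, the scaffold INCENP had 5.60 and 6.31, and the kinase AURKB was called by no list. Among genes of cytokinesis, the kinesin KIF20A had 10.5 and 4.80, and the microtubule bundler PRC1 had 8.38 and 5.83. The listed folds of KIF20A were equal to those of TTK in both lists. ANLN, the actin-binding protein anillin, had 5.46 and 8.87, with the higher value for antibody 2. The kinesin KIF23 had an antibody 1 peak at 5.62, and ECT2, the exchange factor that activates RhoA at the cleavage site, had CTCF peaks only. Of the 2 transcription factors of the late cell cycle programme, MYBL2 had an antibody 1 peak at 5.17 and FOXM1 was called by no list.

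**Figure D2:**
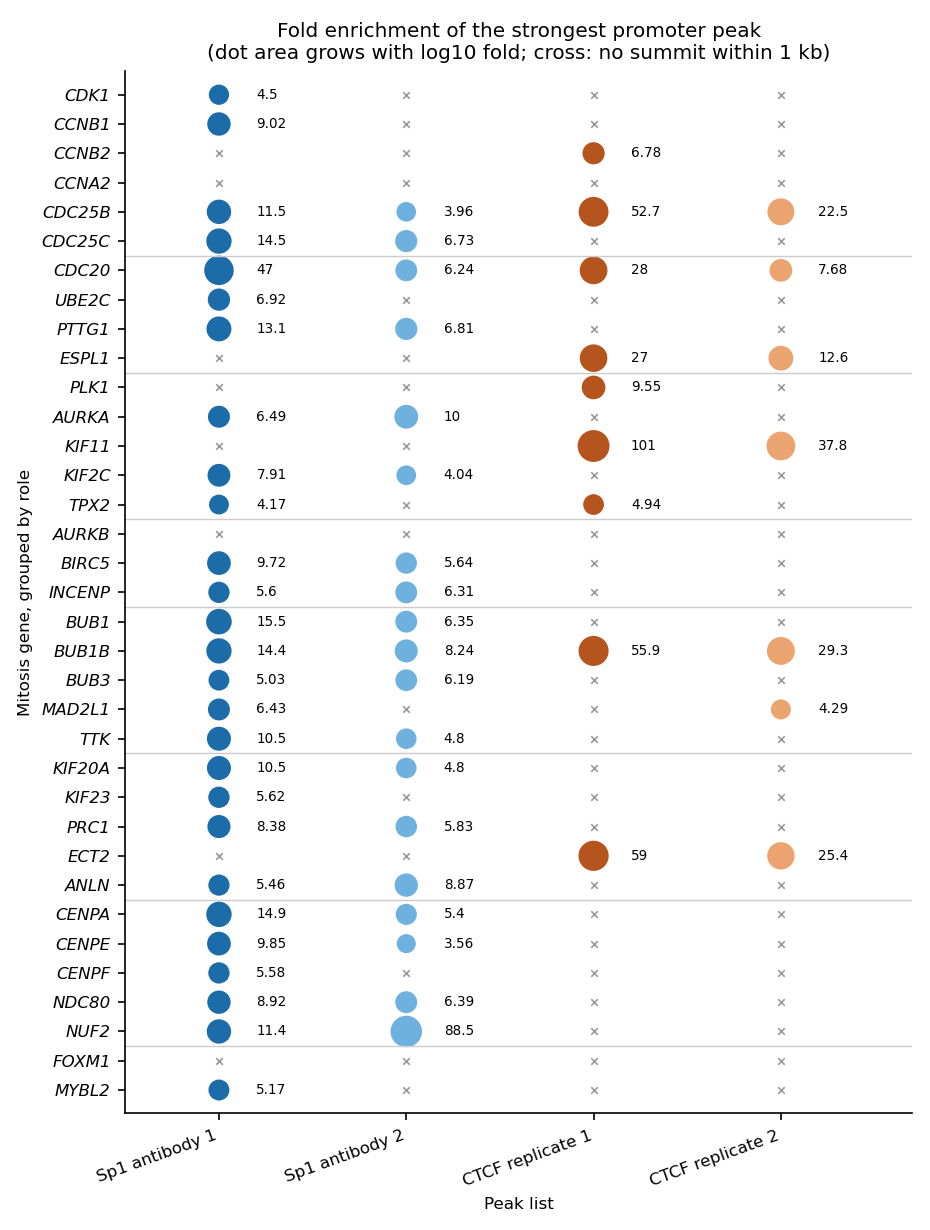
Rows are the 35 mitosis genes grouped by role, columns are the 4 peak lists, and the printed number is the fold enrichment of the strongest promoter peak of a gene. Dot area grows with log10 fold and a cross marks no such summit. The checkpoint and kinetochore genes fill the antibody 1 column, and 37.3% of all protein-coding genes were called by that antibody. Folds in different columns are not on one scale. The highest value is 101, for KIF11, in CTCF replicate 1 and 88.5, for NUF2, with antibody 2.

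The Sp1 folds of the called members were set beside those of all called genes. The median fold of the called members was 8.92 with antibody 1, against 8.85 for all called genes, and 6.24 with antibody 2, against 7.02. With antibody 1, 14 of 27 members stood above the median of all called genes and 5 in their highest 25%. With antibody 2, 4 of 19 stood above the median and 1 in the highest 25%. The fold was higher for antibody 2 in 5 of 19 members called by both, namely AURKA, ANLN, BUB3, INCENP and NUF2. Among all 4233 genes called by both it was higher in 24.3%. The summits of the antibodies lay 149, 284 and 275 bp apart in AURKA, ANLN and BUB3, so these folds belong to different positions. They lay 90 and 42 bp apart in INCENP and NUF2. Gaps above 100 bp also occurred in CDC25B, TTK and KIF20A, where antibody 1 had the higher fold. The median log2 ratio of antibody 2 to antibody 1 was -0.94 in members and -0.66 in all genes called by both. NUF2 lay at one end, with a ratio of 7.76 exceeded by 173 of the 4233 genes, and CDC20 at the other, with a ratio of 0.133 exceeded by 4171.

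**Figure D3:**
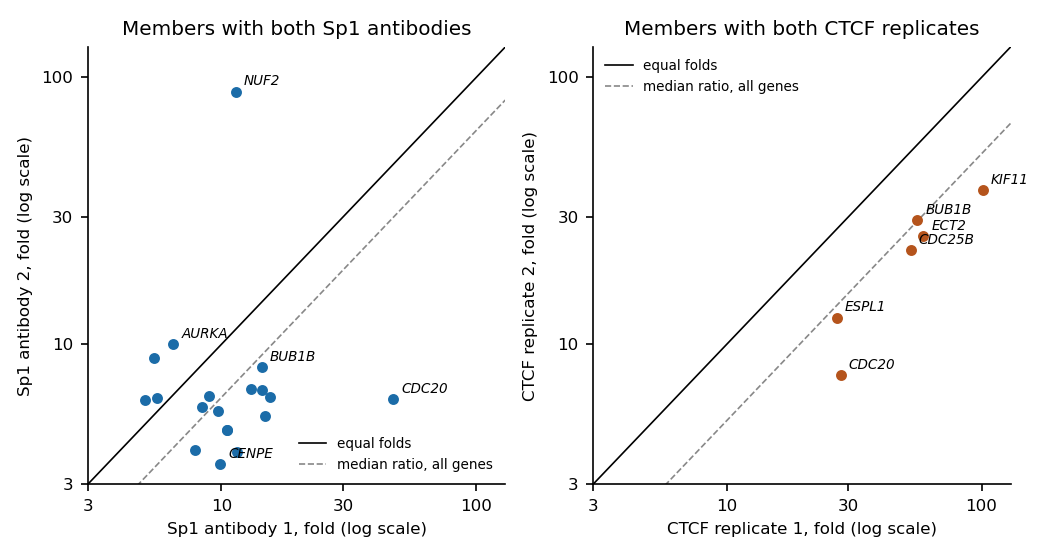
Left, fold with Sp1 antibody 2 (vertical axis) against antibody 1 (horizontal axis) for the 19 members called by both; right, fold in CTCF replicate 2 against replicate 1 for the 6 members called by both. Both axes are logarithmic, the solid line marks equal folds and the broken line the median ratio of all genes called by both lists; NUF2 stands far above the solid line, CDC20 far below, and all 6 CTCF points lie below it.

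Sp1 summits lay close to the starts. The summit nearest to a start lay a median of 64 bp before it with antibody 1 (59 bp before it in all called genes) and 74 bp before it with antibody 2 (57 bp in all). It lay within 250 bp in 26 of 27 members with antibody 1 and in all 19 with antibody 2, against 86.0% and 82.9% of all called genes. The exception was KIF23, whose antibody 1 summit lay 705 bp after a start, in an intron. This summit stood 57 bp from a start of the long noncoding RNA gene KIF23-AS1. The strongest summits of the antibodies lay a median of 42 bp apart in the 19 members, and within 100 bp in 13 of them.

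**Figure D4:**
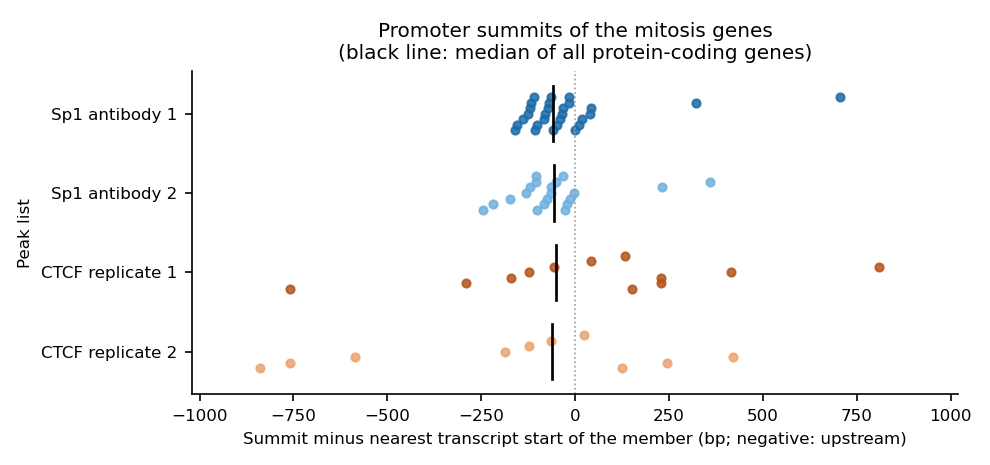
Points are promoter summits of the mitosis genes in each peak list, placed by their distance in bp from the nearest transcript start of the member (negative values upstream). The black line is the median over all called protein-coding genes, taken at each gene's nearest summit; Sp1 points gather just upstream of the start, apart from KIF23 at 705 bp, while CTCF points spread over the window.

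Several Sp1 summits were shared with a divergent neighbour. A protein-coding gene on the other strand started within 1 kb upstream of the canonical start of 7 members (20.0%), against 12.6% of all genes. The pairs were CDC25C with FAM53C, AURKA with CSTF1, KIF20A with BRD8, NDC80 with METTL4, NUF2 with RGS5, PTTG1 with SLU7, and FOXM1 with RHNO1 and TULP3. Of 48 Sp1 promoter peaks of the members, 9 peaks at 6 members had their summit nearer to the protein-coding neighbour. Starts of long noncoding RNA genes were not counted. The antibody 1 summits of CDC20, CCNB1, BUB1, MAD2L1, INCENP, TPX2 and KIF23 lay nearer to such a start than to their own. The distances were 150 against 155 bp at CDC20 and 3 against 161 bp at TPX2. The NDC80 summits lay 4 and 15 bp from a METTL4 start and 82 and 101 bp from that of NDC80. The NUF2 summit of antibody 2, at 88.5, lay 25 bp from an RGS5 start and 74 bp from a NUF2 start. At such promoters the lists cannot assign a peak to either gene. When each peak was given to its nearest protein-coding start alone, antibody 1 called 24 members (68.6%, against 31.2% of all genes), antibody 2 called 15 (42.9%, against 19.6%) and both called 14 (40.0%, against 16.0%).

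CTCF peaks at the members were few and of a height usual for called genes. The median fold was 28.0 in replicate 1, against 22.6 for all called genes, and 22.5 in replicate 2, against 19.8, and 1 of 9 and 0 of 7 members stood in the highest 25%. KIF11 had the highest folds, 101 in replicate 1 and 37.8 in replicate 2, which were higher than in 82.1% and 68.5% of the other called genes. These summits lay 414 and 421 bp after an alternative start, 18611 and 18604 bp before the canonical start of KIF11 and 423 and 430 bp from a start of IDE, which encodes insulin-degrading enzyme. Near its canonical start KIF11 had a peak of 3.06 in replicate 1 alone, 152 bp after it. ECT2 had 59.0 and 25.4, within its promoter as printed above.

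BUB1B, CDC25B and ESPL1 also had their strongest CTCF summits far from the canonical start. BUB1B had 55.9 and 29.3, inside an intron 56291 and 56284 bp after its canonical start and 68 and 75 bp from a start of PAK6. CDC25B had 52.7 and 22.5 at summits 164 and 157 bp from a start of CENPB and 9406 and 9413 bp before its own canonical start. A further CDC25B pair of 12.1 and 8.26 stood 342 and 327 bp before the canonical start. ESPL1 had 27.0 and 12.6 in an intron, with a weaker pair of 12.4 and 5.85 at 170 and 187 bp before the canonical start. With canonical starts alone, both replicates called 4 members, CDC20, CDC25B, ECT2 and ESPL1 (11.4%, against 15.5% of all genes).

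The CTCF replicates placed these peaks alike, with different listed folds. In the 6 members called by both, the strongest summits lay 0 to 18 bp apart, with a median of 7 bp. The fold was lower in replicate 2 in 6 of 6, with ratios from 0.275 for CDC20 to 0.524 for BUB1B. In all 4843 genes called by both it was higher in replicate 2 in 2.29%. The median log2 ratio was -1.22 in members and -0.95 in all. The 4 calls made by 1 replicate alone, CCNB2, PLK1, TPX2 and MAD2L1, had folds of 4.29 to 9.55. Each of these folds was lower than any of the 6 in the same replicate.

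Sp1 and CTCF calls were also set against each other. The 3 members called by all 4 lists (8.57%) stood near the share of all genes (6.68%). Among members called by both Sp1 antibodies, 3 of 19 (15.8%) were also called by both CTCF replicates, against 31.6% of all such genes. Among members with no Sp1 call, 3 of 8 (37.5%) were, against 19.7%. These rest on few genes. In BUB1B the Sp1 and CTCF summits were far apart, at the canonical start and in the distant intron. In CDC20 they stood 155 and 121 bp before the start for Sp1 and 759 bp before it for CTCF. In CDC25B the antibody 2 summit at 3795971 and the weaker CTCF summits at 3795968 and 3795983 on chromosome 20 stood side by side.

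The 1 kb limit left out a few peaks. KIF20A had CTCF folds of 35.6 and 19.9 at summits 1169 and 1163 bp after a start, and FOXM1 had 5.88 in replicate 1 at 1091 bp. Just inside the limit were KIF11 in replicate 2 (838 bp, 6.06), CCNB2 in replicate 1 (809 bp), CDC20 in both replicates (759 bp) and KIF23 with antibody 1 (705 bp). PTTG1 had a further antibody 1 peak of 14.6, 2681 bp before its start and 93 bp from a start of SLU7.

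The promoters shared sequence elements that the list of genes did not use. RefSeq windows from 250 bases before to 50 after a start were at hand for 28 members, with 38 windows, and for 15842 protein-coding genes. The members TTK, BUB3, AURKA, BIRC5, TPX2, UBE2C and FOXM1 had no window. A CHR element occurred in a window of 20 of 28 members (71.4%), against 17.5% of all genes. A CCAAT box occurred in 21 (75.0%), against 42.1%, and both together in 16 (57.1%), against 8.95%. A GC box occurred in 21 (75.0%), against 64.3%, and an ETS core in 7 (25.0%), against 26.6%. The word TCGCGAGA, also searched on both strands, occurred in 1 member, CDC25B, and in 2.04% of all genes.

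The CHR elements of the members sat at the start. Over the first window of each gene, the middle of a match lay a median of 18 bp before the start in members and 134 bp before it in all genes, and 19 of 22 member matches (86.4%) were within 100 bp of the start, against 37.9% of all matches. CCAAT boxes lay a median of 67 bp before the start in members and 94 bp in all genes. The CCNB2 promoter printed above shows the arrangement, with CCAAT boxes 118, 85 and 52 bp and a CHR element 26 bp before the start. Of the members called by no list, CCNA2 and AURKB held no CHR match in their RefSeq windows. The search covered TTTGAA and TTCGAA alone, so another form of the element would be missed. The windows of AURKB did not reach its canonical start, so its canonical promoter was not covered by this count. With windows at canonical starts, 21 of 28 members held a CHR element. A match to these letters is a description and shows no bound factor.

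**Figure D5:**
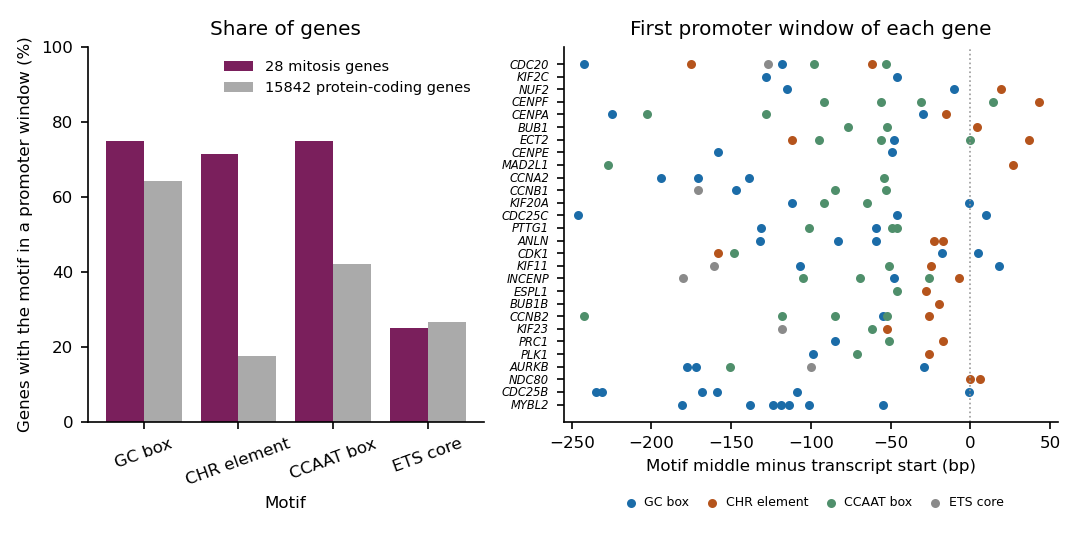
Left, bars give the percentage of genes with each motif in a promoter window, for 28 mitosis genes and 15842 protein-coding genes; right, dots give the position of each match in the first window of each member, in bp from the transcript start. CHR elements reach 71.4% of members against 17.5% of all genes and cluster near the start, whereas the ETS core reaches 25.0% and 26.6%.

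The Sp1 calls were also split by the presence of a GC box in a window. Only 7 members lacked one, too few to compare the 2 antibodies. Antibody 1 called 15 of 21 members with a GC box (71.4%) and 6 of 7 without one (85.7%). Among all protein-coding genes with a window it called 48.8% of those with a GC box and 21.9% of those without. Antibody 2 called 12 of the 21 members with a GC box (57.1%) and 3 of the 7 without (42.9%), against 30.8% and 16.0% of all genes. The members without a GC box in a window were CENPF, BUB1, MAD2L1, ESPL1, BUB1B, KIF23 and NDC80. In CENPF and KIF23 the antibody 1 summit lay outside the window, with 2 and 1 GC boxes within 50 bp of it. No GC box stood within 50 bp of the antibody 1 summits of BUB1, MAD2L1, BUB1B and NDC80. Only the exact word GGGCGG was counted, so a variant Sp1 site could still be present. A CCAAT box stood in all 7 members with a window and no Sp1 call and in 9 of 15 called by both antibodies (60.0%), against 38.1% and 53.4% of all genes in these states. A CHR element stood in 5 of the 7 (71.4%) and 11 of the 15 (73.3%), against 19.1% and 16.5%. The median GC content of the first window was 61.5% in members and 62.7% in all genes.

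Within 50 bp of the summit itself, a GC box stood at 11 of 22 antibody 1 summits of members (50.0%), against 56.8% of all promoter summits of that antibody, and at 6 of 16 antibody 2 summits (37.5%), against 44.8%. A CCAAT box stood at 8 of 22 (36.4%), against 22.7%, and at 6 of 16 (37.5%), against 23.1%. A CHR element stood at 3 of 22 (13.6%), against 3.01%, and at 1 of 16 (6.25%), against 3.29%. These counts are too few to give a direction. Here and in the CTCF search below, member summits were those of the 28 members with a RefSeq window. The shares of all promoter summits had no such limit.

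The CTCF core motif, allowing 1 mismatch over its 12 letters, was found within 50 bp of 2 of 11 member summits in replicate 1 (18.2%), against 33.8% of all promoter summits of that replicate. These were the ECT2 summit and the intronic ESPL1 summit, both on the strand opposite to the reference, and the same words stood at the replicate 2 summits.
ECT2: CCAGGAGGTGGC
ESPL1: ACAGCAGGTGGC
The ECT2 word can be read in reverse complement in the promoter printed above. No such word lay near the strongest summits of KIF11, BUB1B and CDC25B, which says only that these letters were not within 50 bp.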

How the data were processed

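The data were 5 peak lists from ChIP-seq libraries of U-2 OS cells: Sp1 antibody 1, Sp1 antibody 2, IgG, and CTCF replicates 1 and 2. Input libraries had no list of their own here. With versions as listed in the submitters' processing notes, reads were adapter-trimmed by the authors (Cutadapt 2.6), mapped to the hg38 build by Bowtie2 2.4.5, freed of duplicates by SAMtools 1.15.1 and passed to MACS2 2.2.7.1, one library at a time. The study's methods name other versions of some of these tools. Deposited values are the fold enrichment at the summit over control (a linear ratio made by the authors), the summit's −log10 p and its −log10 q as the authors' caller gave them, an integer score that the authors' caller derived from the −log10 q (not used), and the summit offset. The lists end at −log10 q between 1.30 and 1.43, near a q-value of 0.05. The methods describe a liberal p-value limit, no local background model and merged control replicates for a reproducibility step; the first is not what these lists show, and whether the others apply to them is not stated. The lists hold no read counts, and read numbers given by the study were not used here.

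Summits were paired with GENCODE 44 transcript starts of protein-coding genes in Python 3.11.15 with pandas 2.3.3 and numpy 2.4.6, at most 1 kb apart, and the pairing and motif search were tested on simulated data. Where a gene had several promoter peaks in a list, the strongest was used. Motifs were sought in RefSeq promoter windows on GRCh38.p14, all 38 of which matched hg38 for the members, and within 50 bp of summits. Members, lists of compared genes and motifs were chosen with earlier results of these data known. All 35 members were accounted for; values in every list were given for members called by both Sp1 antibodies or both CTCF replicates, other genes were named only where their start shared or neighboured a member's peak, and further values of single calls were added after they were seen. Every Sp1 and IgG list rests on 1 library, so no p-value was computed. Alternatives changed the distance limit, the set of starts, the q-value limit, the definition of a promoter peak and the motif window.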

Additional observations from a re-analysis of the deposited data

How the results depend on the processing

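No paired analysis was possible because replicate numbers are shared only by CTCF pulldowns and their inputs, and no peak list of an input was analysed here. Across the alternatives, antibody 1 called 24 to 27 members (against 31.2% to 40.5% of all genes), antibody 2 called 15 to 19 (against 19.6% to 27.0% of all genes), and the motif counts stayed within 1.5 times. CTCF calls depended most on the definition. Replicate 1 called 15 members with summits up to 5 kb from a start (42.9%, against 51.5% of all genes) and 5 when the peak had to overlap the start (14.3%, against 19.6%). Under that last definition 1 member was called by all 4 lists (2.86%, against 3.29% of all genes). Using 1 CTCF replicate in place of both gave 7 members without replicate 1 and 9 without replicate 2, and 3 either way for members also called by both Sp1 antibodies. Median folds of called members became 8.42 (antibody 1) and 6.19 (antibody 2) at the nearest peak, 8.97 (antibody 1) within 500 bp, and 6.31 (antibody 2) at a −log10 q of at least 3. The CTCF replicate 1 median became 52.7 within 500 bp, where 7 members remained. The causes were not tested. With 1 library per Sp1 antibody and no read depth used, a member without a peak cannot be called unbound.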

Other observations

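Peaks inside the annotated bodies of the mitosis genes, more than 1 kb from any of their starts, were no more frequent than in all protein-coding genes. CTCF replicate 1 had 12 in 10 members (28.6%, against 40.2% of all genes) and replicate 2 had 9 in 8 members (22.9%, against 36.6%). Antibody 1, antibody 2 and IgG had 0 in the members, against 4.76%, 4.04% and 0.0399% of all genes. The Sp1 lists are much shorter than the CTCF lists, and gene length was not taken into account. The highest fold stood in an intron of CENPF, at 111 in replicate 1 and 51.7 in replicate 2, above any promoter peak of the members in the same replicate. A further CENPF pair of 30.9 and 16.7 lay in a coding exon. NUF2, which had no CTCF promoter summit, had 50.6 and 24.5 upstream of its canonical start, within the span of a longer transcript and 5921 and 5910 bp from its nearest start. MYBL2 had 35.7 and 21.5 about 25 kb into the gene, and ANLN had 23.0 and 5.56 in an intron.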
